A study of Mus musculus with 40 samples.

Results

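The circadian clock genes described here are Nr1d1, Nr1d2, Dbp, Tef, Per1, Per2, Per3, Bhlhe40 and Bhlhe41, the repressor and output arm of the clock, measured in liver from 40 mice of the inbred strain C57BL/6J. The 9 genes were chosen by name: every probe whose symbol in the platform's annotation is one of them was taken, which gave 10 probes among the 23574 on the array, and 9 genes among 10842 that could be named. Each liver had 1 array, on which its RNA, labelled with Cy5, was read against a common pool of liver RNA, labelled with Cy3. All values below are log2 ratios of a liver to that pool, so a value of 1 is a doubling over the pool, and ratios of different genes do not compare their levels. There were 8 groups of 5 mice. Females had been ovariectomized and carried a pellet of estradiol, of dihydrotestosterone (DHT, an androgen that aromatase does not turn into estrogen) or of placebo, or were intact. Males had been castrated and carried the same kinds of pellet, or were intact. Surgery was done at 8 weeks of age and pellets were implanted at 12 weeks. The mice ate chow (4% fat) and were killed when 14 weeks old, having fasted for 12 h. Each hormone pellet was made to release over 21 days: 0.5 mg of estradiol, with a stated plasma level of 300 pg/ml, or 5 mg of DHT, with a stated level of 1 to 2 ng/ml. Whether intact mice had surgery or a pellet is not stated, and neither is the hour at which any mouse was killed.

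The clock of a liver cell is a loop of transcription and repression that runs through the day. The activators Arntl (Bmal1) and Clock bind E box sequences and switch on the Per, Nr1d and Dbp genes. PER proteins then block the activators, while NR1D1 and NR1D2, the Rev-erb nuclear receptors, repress Arntl itself, and BHLHE40 and BHLHE41 compete for the same E boxes. DBP and TEF are proline and acid rich transcription factors that carry the rhythm to D box genes, many of them for drug and heme metabolism in liver. The transcript levels of these genes therefore depend on the time of day, and differences in the hour of death between groups or within them were not tested, since the labels do not give it.

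The promoters of the arm carry some of the elements by which these proteins act on one another. RefSeq promoter windows of 300 bases around the transcription start were used for 7 of the 9 genes, all but Per2 and Bhlhe40, in 9 windows on GRCm38.p6. Windows are shown for both receptor genes, for Dbp, and for Per1 and Per3, the members with a D box. Capitals mark an E box (CACGTG, or its variant CACGTT, on either strand) or a D box (TTATGNAA), written 5′ to 3′ on the strand of the gene. The Nr1d1 window is chr11:98775328-98775627 on the minus strand, the Nr1d2 window chr14:18239057-18239356 on the minus strand and the Dbp window chr7:45704997-45705296 on the plus strand. The Per1 window is chr11:69098699-69098998 on the plus strand and the Per3 window chr4:151044616-151044915 on the minus strand.
Nr1d1: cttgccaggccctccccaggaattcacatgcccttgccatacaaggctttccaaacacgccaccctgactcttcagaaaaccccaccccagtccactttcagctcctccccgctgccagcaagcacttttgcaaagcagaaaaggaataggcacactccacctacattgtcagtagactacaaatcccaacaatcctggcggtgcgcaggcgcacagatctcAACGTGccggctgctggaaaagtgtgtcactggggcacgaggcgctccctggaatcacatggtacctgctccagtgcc
Nr1d2: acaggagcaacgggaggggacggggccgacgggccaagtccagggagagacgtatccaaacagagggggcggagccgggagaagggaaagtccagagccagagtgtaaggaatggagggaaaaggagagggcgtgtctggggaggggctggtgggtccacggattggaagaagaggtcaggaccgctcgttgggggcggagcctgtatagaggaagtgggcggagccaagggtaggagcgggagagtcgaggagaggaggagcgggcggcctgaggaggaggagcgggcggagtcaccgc
Dbp: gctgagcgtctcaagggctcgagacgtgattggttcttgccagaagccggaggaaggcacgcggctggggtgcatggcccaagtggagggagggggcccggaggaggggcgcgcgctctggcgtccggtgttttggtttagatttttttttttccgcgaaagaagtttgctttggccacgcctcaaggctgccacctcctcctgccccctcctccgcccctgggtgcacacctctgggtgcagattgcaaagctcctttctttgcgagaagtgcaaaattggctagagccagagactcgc
Per1: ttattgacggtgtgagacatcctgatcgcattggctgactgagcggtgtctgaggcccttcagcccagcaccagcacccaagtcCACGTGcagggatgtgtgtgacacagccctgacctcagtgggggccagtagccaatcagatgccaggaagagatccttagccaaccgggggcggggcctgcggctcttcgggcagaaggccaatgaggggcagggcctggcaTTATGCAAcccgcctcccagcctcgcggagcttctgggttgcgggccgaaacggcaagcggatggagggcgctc
Per3: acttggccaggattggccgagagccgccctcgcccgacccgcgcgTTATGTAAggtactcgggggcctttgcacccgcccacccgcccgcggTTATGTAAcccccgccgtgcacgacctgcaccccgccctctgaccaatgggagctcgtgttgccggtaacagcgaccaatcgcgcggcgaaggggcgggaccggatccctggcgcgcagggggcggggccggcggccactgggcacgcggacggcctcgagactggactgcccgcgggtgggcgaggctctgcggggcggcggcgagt

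The E box CACGTG was present in windows of 3 of the 7 genes: Per1 at -166 from the start, Tef at -127 in 1 window and -138 in the other, and Bhlhe41 at -153. It is present in 7.15% of the 32851 promoter windows of that length. Nr1d1 had the variant CACGTT at -28, read on the other strand, which 4.68% of windows hold. The D box was found in Per1 at -24 and in Per3 at -205 and -158, against 3.38% of windows. A half-site of the Rev-erb and Ror receptors, AGGTCA, was found in Nr1d2 at -77 and in Per1 at -137, and is held by 16.3% of windows. The cyclic AMP half-site TGACG occurred in both Per1 windows (20.8% of windows) and the glucocorticoid half-site AGAACA in 1 Tef window (19.0%). The looser E box CACGNG, which includes CACGTG, was in windows of 6 of the 7 genes, against 27.5% of windows. Per1, Tef and Bhlhe41, the members with CACGTG here, are among those whose ratios varied least in the values below. So are Dbp and Per3, whose windows lack it, and Per2 and Bhlhe40 had no window. A link between the E box and the spread was not tested. Matches describe the letters in these windows only.

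The labels were checked first. The Y-linked gene Eif2s3y lay at -3.82 or below in all 20 females and at 0.35 or above in all 20 males, so each animal's ratio matched its labelled sex. Array medians ran from -0.045 to 0.036. In bulk liver, fewer cells of a type and less RNA per cell cannot be told apart. A ratio to a liver pool does not show whether a marker is present at all.

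The 9 genes fell into a more variable and a less variable set. Per2, a core repressor of the loop, spanned 7.24-fold between its lowest and its highest liver. Bhlhe40 (also called Dec1) spanned 4.74-fold, Nr1d1 4.00-fold and Nr1d2 3.67-fold. Of these, the spread within groups was already large: the residual SD of Per2 was at the 98.8th percentile of all probes, that of Bhlhe40 at the 97.8th, Nr1d1 at the 96.1th and Nr1d2 at the 90.5th. The others spanned far less: Bhlhe41 1.76-fold, Dbp 1.63-fold, Per1 1.58-fold, Tef 1.50-fold and Per3 1.34-fold. In that order, their residual SDs were at percentiles 58.8, 43.2, 49.4, 29.4 and 7.7 of all probes. The second Nr1d2 probe spanned 1.51-fold, with group means between -0.05 and 0.10, and its deviations ran against those of the first probe (Pearson r = -0.55 over 40 livers), so the Nr1d2 values below belong to the more variable probe, which was chosen for its spread.

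Over all 8 groups, 5 of the 9 genes differed. The limma F test over the group means, adjusted over all 23574 probes, gave 5.52e-06 for Per2, 7.36e-05 for Nr1d2, 0.000198 for Bhlhe40, 0.00181 for Nr1d1 and 0.00349 for Dbp. It did not pass for Tef (0.278), Per3 (0.293), Per1 (0.312) or Bhlhe41 (0.427), nor for the second Nr1d2 probe (0.802). Of all probes, 17.2% passed.

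**Figure D1:**
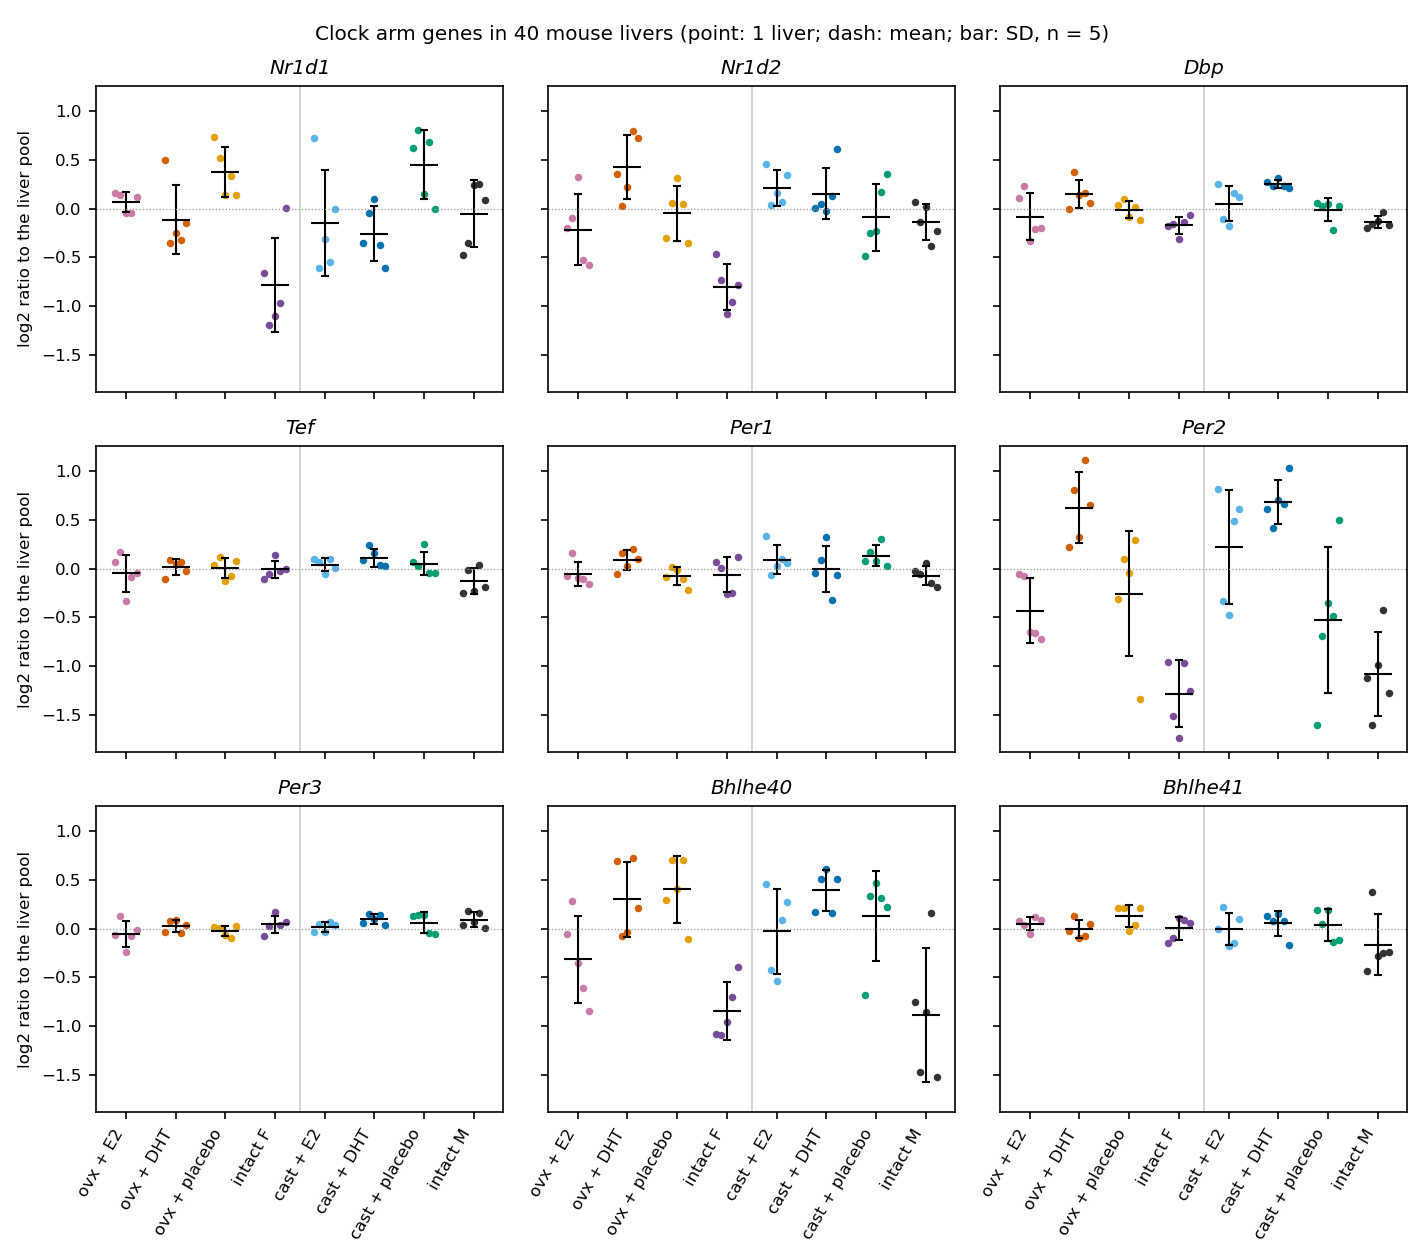
Log2 ratio to the liver pool of the 9 genes in each of 40 livers (points), by group, with the group mean (dash) and SD (bar, n = 5); females stand left of the grey line and males right of it. Per2 and Bhlhe40 have their lowest means in both intact groups and Nr1d1 and Nr1d2 in intact females, while Per1, Per3, Tef and Bhlhe41 stay within -0.44 to 0.38.

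Per2 was highest in the livers of mice on DHT and lowest in intact mice. Its 5 values were 0.22, 0.81, 0.33, 1.12 and 0.65 in ovariectomized females on DHT, against -0.31, 0.10, -0.04, 0.30 and -1.34 on placebo. In castrated males they were 0.61, 0.42, 0.71, 0.66 and 1.04 on DHT, against -1.60, -0.70, -0.35, -0.49 and 0.50 on placebo. All 10 DHT livers thus lay above 0.2, while placebo livers reached over a much wider range in both sexes and overlapped them. Intact females had -0.96, -1.51, -1.74, -0.96 and -1.25, and intact males -1.13, -1.60, -0.99, -0.43 and -1.28. On estradiol the values were -0.06, -0.07, -0.65, -0.66 and -0.72 in ovariectomized females and 0.81, -0.34, -0.48, 0.49 and 0.61 in castrated males. Of the 30 gonadectomized livers, 22 lay above every intact liver. In the order of the group means (castrated on DHT 0.69, ovariectomized on DHT 0.63, castrated on estradiol 0.22, ovariectomized on placebo -0.26, ovariectomized on estradiol -0.43, castrated on placebo -0.53, intact males -1.09, intact females -1.28), no 2 neighbours differed by more than the larger of their SDs.

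DHT against placebo, averaged over the sexes, went with higher Per2 and Dbp and lower Nr1d1. The differences were 1.05 ± 0.21 for Per2 (SE, 2.07-fold; limma adjusted p = 0.00120), 0.21 ± 0.06 for Dbp (1.16-fold; adjusted p = 0.0312) and -0.60 ± 0.16 for Nr1d1 (1.52-fold lower; adjusted p = 0.0148). So 2 of 9 members rose, where 3.08% of all probes did, and 1 fell, where 2.19% did. The Dbp call was lost without any 1 of 5 of the 20 animals (18, 20 and 27 on placebo, 51 and 59 on DHT), with an adjusted p of up to 0.0746, while the Per2 and Nr1d1 calls held without each of the 20 in turn. Nr1d2 differed by 0.36 ± 0.12 and did not pass (adjusted p = 0.0778). Among markers of other cell types, 1 of 9 endothelial, 1 of 6 stellate, 1 of 9 lymphoid and 1 of 3 bile duct markers fell in this comparison, the largest change being that of Pdgfrb of stellate cells (-0.42 ± 0.09, adjusted p = 0.00306), and 1 of 4 erythroid markers rose, Alas2 (1.12 ± 0.17, adjusted p = 3.12e-05). The mean of the 9 lymphoid markers ran from -0.10 to -0.07 in ovariectomized DHT livers and from -0.07 to 0.07 in ovariectomized placebo livers, and from -0.08 to 0.08 in castrated DHT livers and from 0.02 to 0.17 in castrated placebo livers. Within groups it correlated with Per2 at r = -0.57 (rho = -0.59) and with Nr1d2 at r = -0.51 (rho = -0.53) over 40 livers. Nr1d2 also ran against the array median (r = -0.68). The parts of these cells, of the array and of the unlabelled hour of death in these results were not tested.

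Taken by sex, the androgen comparison passed for Per2 in males, at 1.22 ± 0.30 (adjusted p = 0.0155; 1 of 9 members, 3.47% of all probes). Without castrated placebo animal 24, whose Per2 was lowest of that group at -1.60, the adjusted p was 0.0773 and the difference 0.95, and with only the compared groups in the fit the adjusted p was 0.0781. In females Per2 differed by 0.88 ± 0.30 (adjusted p = 0.168) and 0 of 9 members passed, where 1.15% of all probes did and 3 members had an unadjusted p under 0.05. The difference between the sexes in DHT minus placebo passed for 0 of 9 members and for 0% of probes. Of the members 1, Per1, had an unadjusted p under 0.05, with DHT minus placebo differing by 0.30 between the sexes (limma adjusted p = 0.57).

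Dbp, the founder of the proline and acid rich factors, had a narrow range. In castrated males it lay at 0.27, 0.23, 0.31, 0.23 and 0.21 on DHT, against 0.05, 0.03, 0.05, -0.22 and 0.03 on placebo and -0.20, -0.15, -0.12, -0.04 and -0.17 in intact males. The DHT group overlapped neither of the other groups (exact permutation p = 0.00794 for each, two-sided, the smallest that 5 against 5 allow), as was so for 4.06% of all probes against placebo and 4.13% against intact males. Against placebo in males alone the difference of 0.26 ± 0.09 did not pass in limma (adjusted p = 0.0805). Ovariectomized females had -0.00085, 0.38, 0.14, 0.16 and 0.05 on DHT, against 0.03, 0.09, -0.09, 0.02 and -0.12 on placebo and -0.18, -0.15, -0.31, -0.14 and -0.07 in intact females. Their DHT livers did not overlap the intact livers, as was so for 5.40% of all probes. Estradiol livers ranged from -0.33 to 0.23 in females and from -0.17 to 0.26 in males.

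Within groups, Dbp ran against macrophage markers. The mean ratio of 9 Kupffer and macrophage markers correlated with Dbp at r = -0.75 (rho = -0.72) and that of 3 fat cell markers at r = -0.73 (rho = -0.63) over 40 livers, after group means were removed. The SD of the macrophage mean was 0.82 in ovariectomized and 0.51 in castrated estradiol livers, against 0.15 to 0.26 in the other groups. For the fat cell mean it was 0.51 and 0.41, against 0.05 to 0.14. Most of the within-group spread of both means thus lay in estradiol livers, and the correlations without those livers were not computed. The mean of the macrophage markers ranged from -0.85 to -0.27 in ovariectomized DHT livers and from -0.52 to 0.05 in ovariectomized placebo livers, and from -0.58 to -0.20 in castrated DHT livers and from -0.56 to 0.08 in castrated placebo livers. It ran from -0.28 to 1.59 in ovariectomized estradiol livers and from -0.46 to 0.84 in castrated estradiol livers, wider than in any other group, while intact females had -0.51 to -0.03 and intact males -0.71 to -0.18. In the average DHT difference 0 of the 9 macrophage markers passed in limma in either direction, and 0 had an unadjusted p under 0.05. In the average estradiol difference 4 rose, among them Adgre1 by 1.00 ± 0.26 (adjusted p = 0.0173). The part of these cells in the Dbp values was not tested.

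**Figure D2:**
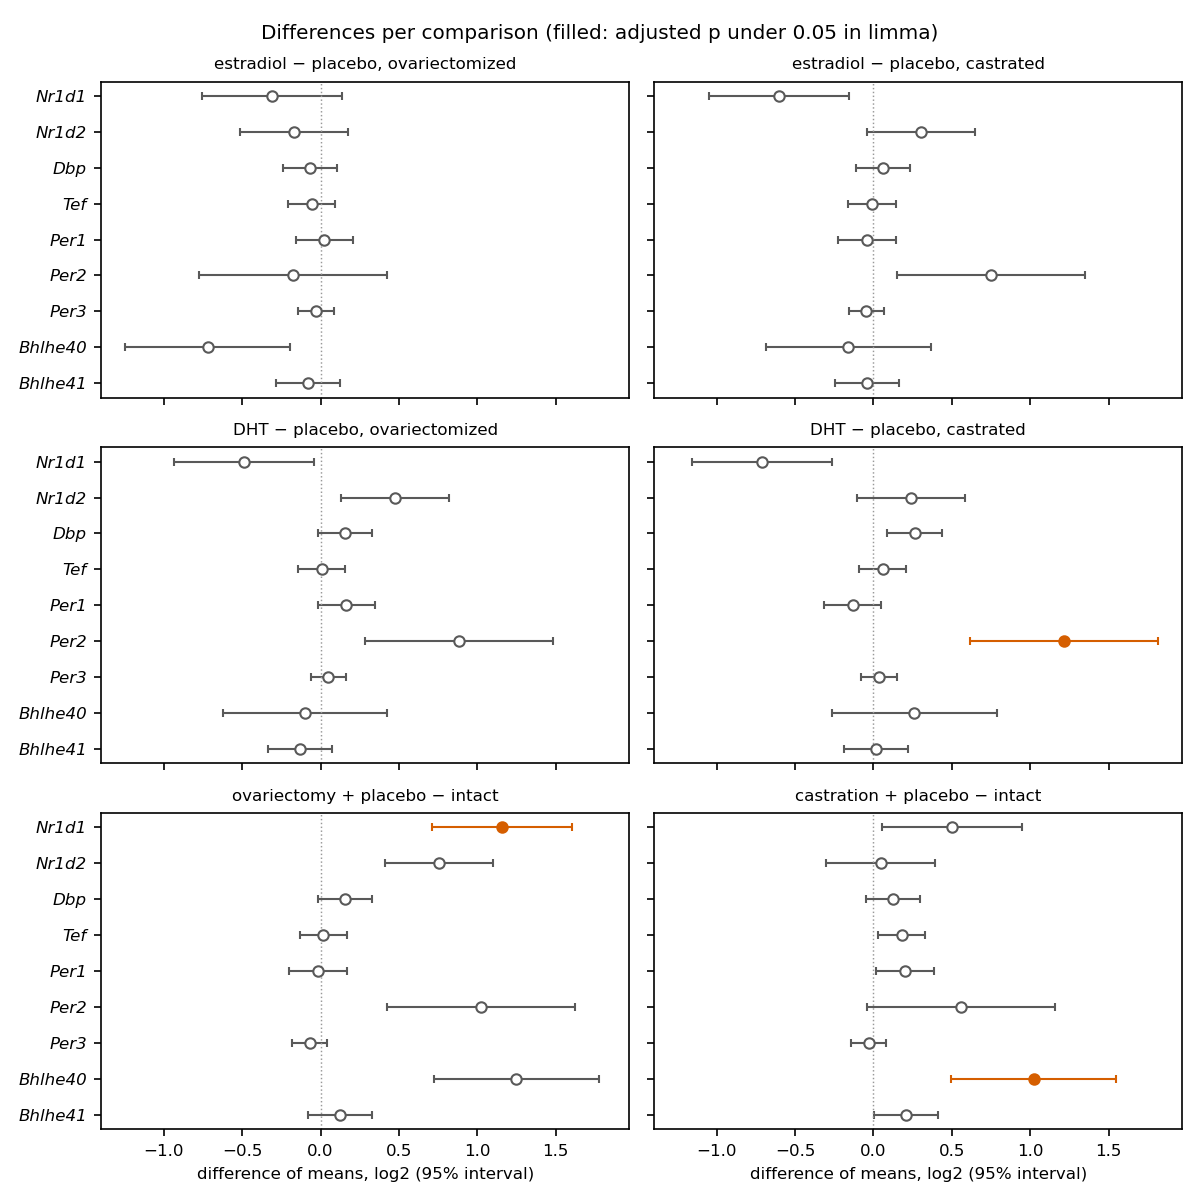
Difference of group means in log2 with its 95% interval (limma, n = 5 per group) for each of the 9 genes, in estradiol minus placebo, DHT minus placebo and gonadectomy with placebo minus intact, for females on the left and males on the right. Filled orange points passed an adjusted p of 0.05 over all probes: Per2 on DHT in males at 1.22, Nr1d1 after ovariectomy at 1.16 and Bhlhe40 after castration at 1.02.

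Gonadectomy with placebo, averaged over the sexes, went with higher Bhlhe40, Nr1d1, Per2 and Nr1d2 than in intact mice. The differences were 1.14 ± 0.18 for Bhlhe40 (2.20-fold; limma adjusted p = 8.25e-05), 0.83 ± 0.16 for Nr1d1 (1.78-fold; 0.000505), 0.79 ± 0.21 for Per2 (1.73-fold; 0.0165) and 0.40 ± 0.12 for Nr1d2 (1.32-fold; 0.0390). So 4 of 9 members rose and 0 fell, where 2.20% of all probes rose and 3.78% fell, and the median over the members was 0.17, against 0.01 over all probes. The Nr1d2 call held in 8 of 20 fits that each left out 1 animal and was lost, with an adjusted p of up to 0.0843, without any of the intact animals 2, 3, 4, 5, 9, 11 and 12 or the placebo animals 17, 18, 19, 27 and 28. It was also lost when each array was centred on its median (adjusted p = 0.0539). The other 3 calls held in all 20 fits. Alas2 of erythroid cells, which rose on DHT, fell in this comparison (-0.61 ± 0.17, adjusted p = 0.0233; 1 of 4 markers), as did Lep of fat cells (-0.19 ± 0.06, adjusted p = 0.0400; 1 of 3). The placebo groups and the pellet comparisons share animals, so a gene that is high on placebo is set higher here and lower there. Taken by sex, Nr1d1 passed in limma in females alone and Bhlhe40 in males alone. In females 0.0339% of all probes passed, and in males 5.20% passed as higher. Bhlhe40 differed by 1.25 in females (limma adjusted p = 0.0564) and by 1.02 in males (0.00665). The difference between the sexes passed for 0 of 9 members, where 4.40% of all probes did. In males the difference was 0.05 for Nr1d2 and 0.56 for Per2 (exact permutation p = 0.802 and 0.190). It was 0.50 for Nr1d1 (limma adjusted p = 0.135). In females it was 0.75 for Nr1d2 (limma adjusted p = 0.0958). Mean Per2 was -0.26 in ovariectomized females on placebo against -1.28 in intact females (exact permutation p = 0.0317, unadjusted). That difference did not pass in limma.

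Bhlhe40, a basic helix-loop-helix repressor, was the member that rose most after gonadectomy. Castrated males on placebo had -0.68, 0.33, 0.48, 0.32 and 0.22, against -0.75, -1.47, -0.86, 0.17 and -1.52 in intact males. All but 1 intact male lay below all castrated placebo livers. The difference was 1.02 ± 0.26 (adjusted p = 0.00665), 1 of 9 members called and higher, where 5.20% of all probes were, and the adjusted p was 0.0771 with only the compared groups in the fit. In the same comparison 2 of 9 endothelial, 1 of 6 stellate and 2 of 9 lymphoid markers rose, among them Tie1 (0.45 ± 0.11, adjusted p = 0.00405) and Cd2 (0.62 ± 0.16, 0.00683). Meanwhile 1 of 4 hepatocyte, 1 of 4 erythroid and 1 of 3 fat cell markers fell: Serpina1a (-0.35 ± 0.08, 0.00282), Alas2 (-1.41 ± 0.24, 6.65e-05) and Lep (-0.40 ± 0.08, 0.000591). The mean of the lymphoid markers ran from 0.02 to 0.17 in castrated placebo livers and from -0.19 to -0.02 in intact males, and that of the endothelial markers from 0.0022 to 0.23 and from -0.15 to 0.04 in the same groups. Their part in the result was not tested. In females the values were 0.30, 0.71, 0.41, 0.71 and -0.11 after ovariectomy with placebo, against -1.08, -1.09, -0.96, -0.70 and -0.39 in intact females. Those groups did not overlap (exact permutation p = 0.00794; 1.11% of all probes did not), yet the difference of 1.25 ± 0.26 just missed the threshold (adjusted p = 0.0564), in a comparison in which only 0.0339% of all probes passed. On estradiol Bhlhe40 ran from -0.85 to 0.29 in females and from -0.53 to 0.46 in males, and on DHT from -0.08 to 0.72 in females and from 0.16 to 0.62 in males.

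Nr1d1, the Rev-erb alpha gene, was lowest in intact females and highest on placebo. Ovariectomized females had 0.16, 0.14, -0.04, -0.04 and 0.11 on estradiol, 0.50, -0.35, -0.25, -0.32 and -0.15 on DHT, and 0.73, 0.52, 0.14, 0.34 and 0.14 on placebo. Intact females had -0.66, -1.20, -1.10, -0.97 and 0.01, of which 4 lay at -0.66 or below. Castrated males had 0.72, -0.61, -0.31, -0.55 and 0.00036 on estradiol, -0.35, -0.04, 0.10, -0.37 and -0.62 on DHT, and 0.62, 0.80, 0.15, 0.69 and -0.00077 on placebo, against -0.48, -0.36, 0.24, 0.26 and 0.09 in intact males. In the order of means (castrated placebo 0.45, ovariectomized placebo 0.38, ovariectomized estradiol 0.07, intact males -0.05, ovariectomized DHT -0.11, castrated estradiol -0.15, castrated DHT -0.26, intact females -0.78), only the step below ovariectomized placebo and the step to intact females exceeded the larger SD of the neighbours. Ovariectomized females on estradiol were 0.85 ± 0.22 above intact females (adjusted p = 0.0354; 1 of 9 members, 1.89% of all probes), a call that held in 3 of 10 fits that each left out 1 animal and was lost without intact animal 1, 2, 3 or 4 or estradiol animal 35, 36 or 37, with an adjusted p of up to 0.121. The call after ovariectomy with placebo (1.16 ± 0.22, adjusted p = 0.0387; 1 of 9 members, 0.0339% of all probes) likewise held in 3 of 10 fits and was lost without intact animal 1, 2, 3 or 4 or placebo animal 16, 17 or 19, with an adjusted p of up to 0.255. With only the compared groups in the fit, the adjusted p was 0.143 for the estradiol comparison and 0.150 for the placebo comparison. Estradiol against placebo gave -0.46 ± 0.16 over both sexes, which did not pass (adjusted p = 0.0820).

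Nr1d2, the Rev-erb beta gene, was set apart in intact females. Their values were -0.46, -0.73, -1.08, -0.96 and -0.79, against 0.06, -0.14, 0.02, -0.39 and -0.23 in intact males, without overlap (exact permutation p = 0.00794; 6.74% of all probes did not overlap). The female minus male difference was -0.67 ± 0.17 (1.59-fold lower; adjusted p = 0.00840) and held without each of the 10 animals. For Nr1d1 the same difference was -0.73 ± 0.22 (1.66-fold lower; adjusted p = 0.0290), but the call was lost without any 1 of 6 animals, intact females 2, 3 and 4 and intact males 10, 11 and 12, with an adjusted p of up to 0.0964. The adjusted p was 0.0508 with quantile normalization and 0.0969 with only the compared groups in the fit. So 2 of 9 members were lower in intact females, where 5.36% of all probes were. In that comparison 1 of 9 endothelial, 1 of 6 stellate, 2 of 9 lymphoid and 1 of 4 hepatocyte markers were higher in females, among them Reln of stellate cells (0.46 ± 0.09, adjusted p = 0.000624) and Ttr of hepatocytes (0.57 ± 0.15, 0.00955). Markers lower in females were 1 of 4 hepatocyte, 1 of 4 erythroid and 1 of 3 fat cell markers: Serpina1a (-0.30 ± 0.08, 0.0157), Alas2 (-1.66 ± 0.24, 5.37e-06) and Lep (-0.36 ± 0.08, 0.00232). The mean of the lymphoid markers ran from -0.05 to 0.23 in intact females and from -0.19 to -0.02 in intact males, and their part was not tested. Per2 (-0.20) and Bhlhe40 (0.04) did not pass. After gonadectomy 0 of 9 members differed between the sexes on placebo, estradiol or DHT in limma (0.0679%, 0.136% and 0.0806% of all probes did), with 1, 2 and 0 members at an unadjusted p under 0.05. Averaged over the 4 states, 0 of 9 passed too (2.42% of all probes; 2 at an unadjusted p under 0.05).

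The mean of Nr1d2 was higher in each ovariectomized group than in intact females. Ovariectomized females had -0.20, -0.10, 0.32, -0.53 and -0.58 on estradiol, 0.36, 0.03, 0.22, 0.79 and 0.73 on DHT and -0.30, 0.05, 0.31, 0.05 and -0.36 on placebo. Castrated males had 0.46, 0.04, 0.16, 0.06 and 0.34 on estradiol, 0.01, 0.04, -0.03, 0.13 and 0.61 on DHT and -0.49, -0.25, -0.24, 0.17 and 0.35 on placebo and overlapped the intact males on each pellet. Ovariectomy with placebo gave 0.75 ± 0.17 without overlap, as was so for 1.11% of all probes, but did not pass (adjusted p = 0.0958). The gonadectomy difference of Nr1d2 was 0.71 ± 0.24 larger in females than in males, which did not pass (adjusted p = 0.0929). Of the 9 members 0 passed that test of a difference between the sexes, where 4.40% of all probes did, and 2 had an unadjusted p under 0.05.

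For Per2 and Dbp, the widest differences within a sex lay between DHT-treated and intact livers. Nr1d1 and Bhlhe40 in females differed more from intact on placebo (1.16 and 1.25) than on DHT (0.67 and 1.15). Castrated males on DHT had more Per2 than intact males by 1.77 ± 0.30 (3.42-fold; limma adjusted p = 0.000226), more Bhlhe40 by 1.28 ± 0.26 (2.43-fold; 0.00169), more Dbp by 0.39 ± 0.09 (1.31-fold; 0.00407) and more Tef by 0.24 ± 0.07 (1.18-fold; 0.0444). That is 4 of 9 members, all higher, where 2.49% of all probes were. The Tef call held in 4 of 10 fits without 1 animal and was lost without intact male 8, 10 or 12 or DHT animal 59, 60 or 61, with an adjusted p of up to 0.142. With only the compared groups in the fit, the adjusted p was 0.150 for Tef and 0.0565 for Bhlhe40, and Tef did not pass with quantile normalization either. Ovariectomized females on DHT, a comparison added after the data had been seen, had more Per2 than intact females by 1.91 ± 0.30 (3.76-fold; 0.000105), more Nr1d2 by 1.23 ± 0.17 (2.34-fold; 2.05e-05), more Bhlhe40 by 1.15 ± 0.26 (2.22-fold; 0.00750) and more Dbp by 0.32 ± 0.09 (1.25-fold; 0.0322). Here 4 of 9 rose, where 1.55% of all probes did, and none of the 4 overlapped between the groups, as 5.40% of all probes did not. The Dbp call held in 3 of 10 fits and was lost without intact female 1, 2, 3 or 4 or DHT animal 51, 52 or 53, with an adjusted p of up to 0.129. Castrated males on estradiol, also added, had more Per2 than intact males by 1.31 ± 0.30 (adjusted p = 0.00306) and more Bhlhe40 by 0.86 ± 0.26 (0.0277), 2 of 9 members where 4.22% of all probes were higher, and the Bhlhe40 call held in 5 of 10 fits, being lost without intact male 9 or 12 or estradiol animal 41, 45 or 46, with an adjusted p of up to 0.104, and at 0.148 with quantile normalization and 0.168 with only the compared groups in the fit. Of 51 markers of hepatocytes and other cells, 0 passed in limma between castrated DHT and intact males and 6 had an unadjusted p under 0.05. Ttr (-0.64 ± 0.15, adjusted p = 0.00916) and Alas2 (1.14 ± 0.24, 0.00360) passed between ovariectomized DHT and intact females, and Serpina1a (-0.29 ± 0.08, 0.0201), Alas2 (-1.28 ± 0.24, 0.000309) and Lep (-0.32 ± 0.08, 0.00810) between castrated estradiol and intact males. Their part in these results was not tested. These comparisons share the intact groups with those of gonadectomy.

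Estradiol against placebo moved no member past the threshold. In limma 0 of 9 passed in females (0.632% of all probes), 0 in males (1.18%) and 0 over both sexes (4.83%), with 1, 2 and 2 members at an unadjusted p under 0.05. The largest differences were -0.72 ± 0.26 for Bhlhe40 in females (adjusted p = 0.219) and 0.75 ± 0.30 for Per2 in males (adjusted p = 0.240). The intervals stay wide for these genes, -1.24 to -0.19 for the first and 0.15 to 1.35 for the second at 95%, so the data do not show that the hormone left them alone. The difference between the sexes in estradiol minus placebo passed for 0 of 9 members and 0% of probes, with 1 member, Per2, at an unadjusted p under 0.05.

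Per1, Per3, Tef and Bhlhe41 stayed near the pool in every group. Per1 and Per3 are period genes like Per2, Tef is a relative of Dbp, and Bhlhe41 (Dec2) is the paralog of Bhlhe40. Per1 ranged from -0.33 to 0.33 over all livers, Per3 from -0.24 to 0.18, Tef from -0.33 to 0.25 and Bhlhe41 from -0.44 to 0.38. Apart from Tef in castrated males on DHT against intact males, none of them passed in the 21 comparisons. Per3 had group means between -0.05 and 0.10, and Per1 between -0.08 and 0.13. A small ratio on these arrays can come from a transcript near background, and signal over background was not used here.

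Livers of the same group differed from one another, and some of these genes moved together there. Per2 and Bhlhe40 deviated together from their group means (r = 0.70, rho = 0.69 over 40 livers, permutation p adjusted over 36 pairs of members = 0.000540 and 0.000840). Per2 also went with Nr1d2 (r = 0.51, rho = 0.51, adjusted permutation p = 0.00832 and 0.00964) and with Dbp (r = 0.52, rho = 0.60, adjusted permutation p = 0.00697 and 0.00400). Without the 2 livers whose Per2 deviation lay farthest from its median, r of Per2 with Bhlhe40 was 0.63. Without the 2 farthest in Nr1d2, r of Per2 with Nr1d2 was 0.57. Without the 2 farthest in Dbp, r of Per2 with Dbp was 0.52. Nr1d1 went with neither Per2 (r = 0.09, rho = 0.12, adjusted permutation p = 0.794 and 0.672) nor Nr1d2 (r = -0.06, rho = -0.06, adjusted permutation p = 0.824 and 0.786). The livers share the pool and the normalization.

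**Figure D3:**
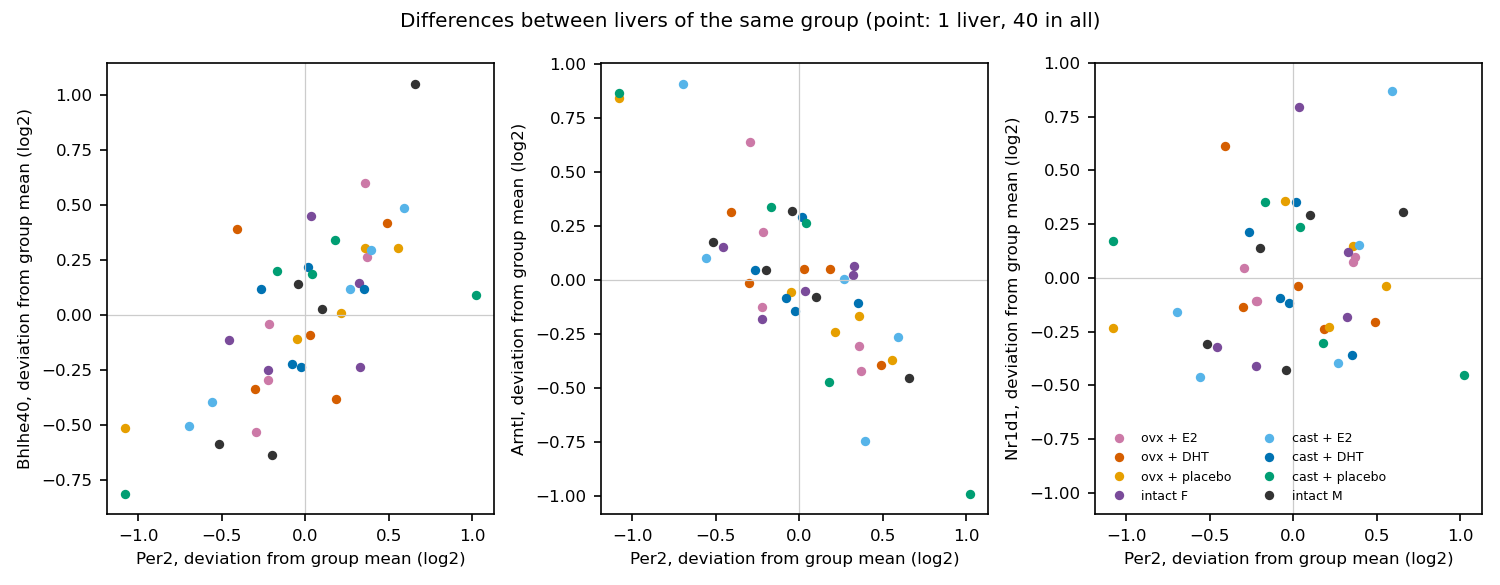
Deviation of each of 40 livers from its group mean in log2, Per2 on each x axis against Bhlhe40 (left), the activator gene Arntl (middle) and Nr1d1 (right) on the y axis, coloured by group. Bhlhe40 rises with Per2 (r = 0.70), Arntl falls with it (r = -0.83) and Nr1d1 shows little relation (r = 0.09).

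Tef, Per3, Bhlhe41 and the second Nr1d2 probe moved with the array as a whole. The deviation of the array's median over all probes correlated with Tef at r = 0.86 (rho = 0.85), with Per3 at 0.84 (0.84), with the second Nr1d2 probe at 0.84 (0.84), with Bhlhe41 at 0.56 (0.60) and with Dbp at 0.55 (0.52), and with Nr1d2 at -0.68 (-0.64), over 40 arrays. Permutation p-values adjusted over 20 such relations were 6.67e-05 for Tef, Per3 and the second probe, which rest on the smallest p that the permutations can give, and at most 0.00453 by r for the other 3. Without the 2 farthest arrays r was 0.82 for Tef, 0.80 for Per3, 0.83 for the second probe, 0.60 for Bhlhe41, 0.41 for Dbp and -0.71 for Nr1d2. Tef and Per3 correlated with each other at r = 0.80 (rho = 0.76, adjusted permutation p = 0.000360 for both), and Nr1d2 with Per3 at r = -0.65 (rho = -0.65, adjusted permutation p = 0.00189 and 0.000936). Without the 2 livers farthest in Tef, r of Tef with Per3 was 0.71. Without the 2 farthest in Nr1d2, r of Nr1d2 with Per3 was -0.58. The share of the array in these correlations was not tested. Per2 (r = -0.21), Nr1d1 (0.08), Bhlhe40 (0.05) and Per1 (0.12) did not pass for the array median. With the array median as a covariate in the fit, the average DHT and gonadectomy comparisons gave the same number of member calls.

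**Figure D4:**
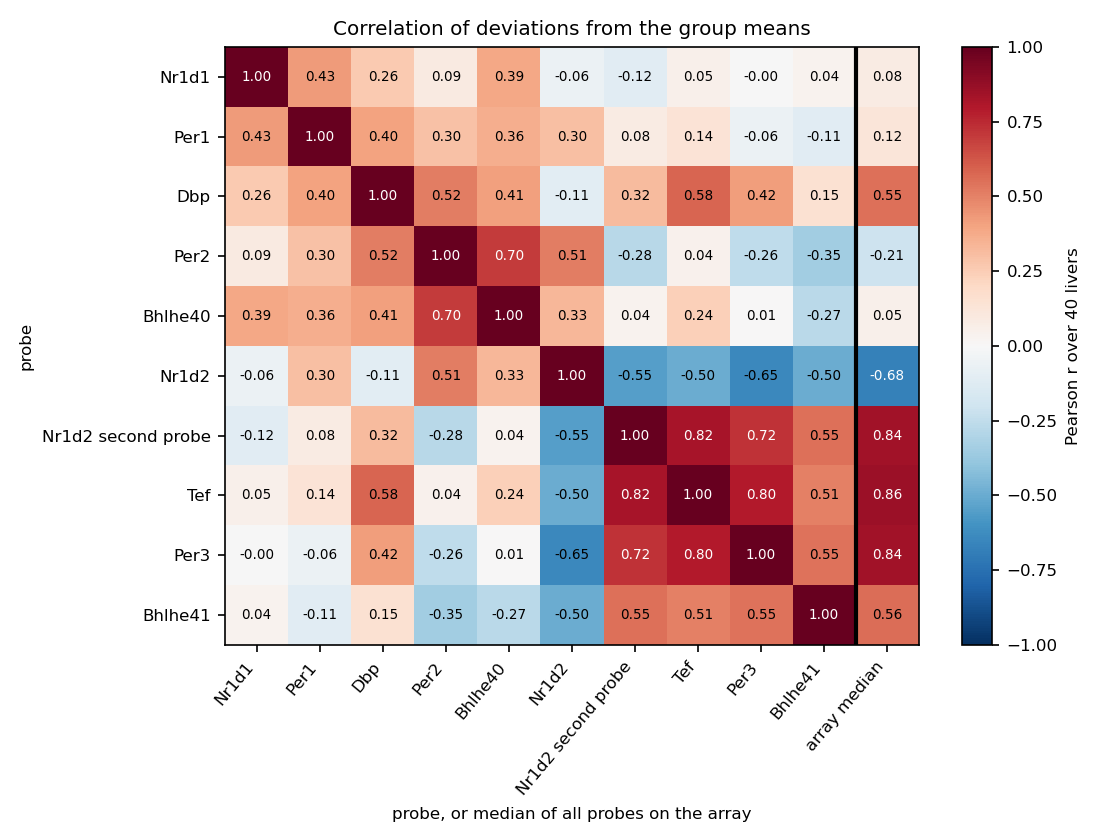
Pearson correlation over 40 livers of the deviations from group means, for the 10 probes of the 9 genes against each other and against the median of all probes on the array (last column). Tef, Per3 and the second Nr1d2 probe correlate at 0.84 or more with the array median, while Per2, Bhlhe40 and Nr1d1 lie between -0.21 and 0.08.

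Within groups several members also went with the mean of a marker list, given as a description over 40 livers. Fat cell markers ran against Per2 (r = -0.49, rho = -0.65) and Bhlhe40 (r = -0.50, rho = -0.50), and macrophage markers against Tef (r = -0.53, rho = -0.57). As given above, most of the within-group spread of the fat cell and macrophage means lay in estradiol livers. Endothelial markers went with Tef (r = 0.65, rho = 0.74), Bhlhe41 (0.60, 0.59), Per3 (0.53, 0.54) and the second Nr1d2 probe (0.75, 0.82), and hepatocyte markers with Per3 (0.54, 0.57) and the second Nr1d2 probe (0.53, 0.53). These probes also followed the array median (Tef r = 0.86, Bhlhe41 0.56, Per3 0.84, second Nr1d2 probe 0.84). Nr1d2, which ran against the array median (r = -0.68), also ran against endothelial (r = -0.45) and hepatocyte markers (r = -0.47). Per1 ran against erythroid markers (r = -0.48, rho = -0.41). The mean of the 3 fat cell markers ran from -0.44 to -0.30 in ovariectomized DHT livers and from -0.38 to -0.26 in ovariectomized placebo livers, and reached 0.72 in ovariectomized and 0.62 in castrated estradiol livers. Neither the part of these cells nor that of the array in the members' values was tested.

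Among the other clock genes, Arntl ran opposite to Per2. Its mean ratio was -1.02 ± 0.26 in ovariectomized DHT livers and -0.11 ± 0.48 in ovariectomized placebo livers, against 1.06 ± 0.13 in intact females (SD, n = 5), and -1.26 ± 0.18 in castrated DHT livers and 0.12 ± 0.73 in castrated placebo livers, against 0.64 ± 0.29 in intact males. Within groups its deviations correlated with those of Per2 at r = -0.83 (rho = -0.75, 40 livers, a description). In the castrated placebo group the liver with the lowest Per2 (-1.60) had the highest Arntl (0.98), and the liver with the highest Per2 (0.50) had the lowest Arntl (-0.87). The ovariectomized placebo liver with a Per2 of -1.34 likewise had the group's highest Arntl, at 0.73. Usp2, a deubiquitinating enzyme of the clock, went with Per2 within groups (r = 0.72). Rora, a receptor that activates the sites the Rev-erbs repress, went with Nr1d2 (r = 0.71). Nr1d2 went more closely still with other named genes, such as Ugp2 (r = 0.90) and Eea1 (0.88), and ran against the array median (r = -0.68). The share of the array in its correlation with Rora was not tested.

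Of 7 measured activator and other core genes, 2 fell and 0 rose in the average gonadectomy comparison, with a median of -0.08, against 0.01 over all named genes. These were Arntl (-0.85 ± 0.19, limma adjusted p = 0.00341) and Nfil3, a repressor at D boxes (-0.59 ± 0.14, adjusted p = 0.00572). In the average DHT comparison 1 of 7 fell, Arntl by 1.15 ± 0.19 on the log2 scale (adjusted p = 8.69e-05), and the median was -0.03, against -0.01. Of 14 kinases and partners of the period proteins, 3 rose and 0 fell with gonadectomy: Usp2 (0.41 ± 0.10), Nono (0.25 ± 0.06) and Csnk1e, casein kinase 1 epsilon (0.27 ± 0.07). On DHT 1 of the 14 rose, Usp2 by 0.76 ± 0.10 (adjusted p = 2.67e-06), and 1 fell, Nono by 0.20 ± 0.06.

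Of 12 measured liver genes reported to answer to DBP, TEF and HLF, 3 rose and 0 fell in the average DHT comparison: Alas1, the first enzyme of heme synthesis (1.29 ± 0.18, limma adjusted p = 1.01e-05), Upp2, a uridine phosphorylase (1.49 ± 0.21, 1.21e-05), and Ces3a, a carboxylesterase (1.13 ± 0.17, 3.82e-05), with a median of 0.14 over the list, against -0.01 over all named genes. After gonadectomy 1 fell, Ces3a (-0.58 ± 0.17, adjusted p = 0.0371), and 0 rose. In the average estradiol comparison 2 rose, Upp2 (0.71 ± 0.21, adjusted p = 0.0428) and Alas1 (0.60 ± 0.18, 0.0435), and 3 fell, among them Gsta2, a glutathione transferase (-1.13 ± 0.20, 0.000858), and Aldh1a1, a retinal dehydrogenase (-0.68 ± 0.13, 0.00141), with a median of -0.02, against -0.02 over all named genes. Between intact females and males 1 of the 12 was higher and 3 were lower. Of 17 reported targets of the Rev-erb repressors, 6 fell and 1 rose after gonadectomy, with a median of -0.19, against 0.01. Elovl3, a fatty acid elongase that also differs between the sexes in liver, was among those that fell (-2.21 ± 0.29, 4.77e-06), as were Arntl, Nfil3 and Insig2 (-0.84 ± 0.20, 0.00679), while Rgs16, a regulator of G protein signalling, rose (1.85 ± 0.33, 0.000296). On DHT 2 of the 17 rose, with Elovl3 at 1.61 ± 0.29 (0.000399), and 3 fell, with Insig2 at -0.83 ± 0.20 (0.00841), and the median was -0.08.

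Of 18 reported rhythmic liver genes outside the loop, 2 rose and 3 fell after gonadectomy. The 2 that rose were Usp2 and Rgs16, already counted in lists above. Those that fell included the cell cycle inhibitor Cdkn1a (-1.02 ± 0.18, limma adjusted p = 0.000230) and Pdk4, a kinase of pyruvate dehydrogenase (-0.78 ± 0.18, 0.00514). On DHT 3 rose and 2 fell. Usp2 (again counted above), Noct, a rhythmic deadenylase-like protein (0.89 ± 0.16, 0.000469), and Coq10b (0.40 ± 0.06, 8.61e-05) were higher, and Pdk4 (-0.89 ± 0.18, 0.00140) was lower. The lists share genes, Arntl and Nfil3 also being counted both as core genes and as Rev-erb targets, so their counts are not independent. Of 12 targets of the glucocorticoid receptor, a signal that also drives Per1, 0 rose and 2 fell after gonadectomy, Cebpd (-0.75 ± 0.18, 0.00761) and Sgk1 (-0.48 ± 0.14, 0.0368), and 0 passed on DHT.

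The genes most like the arm were looked for over 10652 other named genes, by the correlation of deviations from the group means over 40 livers. The mean of the 9 members, each scaled to an SD of 1, went most closely with Rdh16 (r = 0.80), Scnn1a (0.79), Nav2 (0.78), Tbc1d10a (0.78) and Klhl17 (0.78), and most strongly against Polr1e (-0.87), Tex9 (-0.81), Ak7 (-0.80), Spin2c (-0.78) and Sec61g (-0.77). Nr1d1 alone went most closely with Tfap4 (0.75), Frs3 (0.75), Nfatc1 (0.73), Mafk (0.70) and Mtmr3 (0.69), and against Rbmxl1 (-0.74), Gng5 (-0.63), Smpdl3a (-0.61), Oosp1 (-0.61) and Gspt1 (-0.60). These are the extremes of a search over all genes on arrays that share 1 pool, and are descriptions. The members did not all move together (Nr1d2 with Per3 at r = -0.65, Nr1d1 with Per2 at r = 0.09). Tef and Per3, which followed the array median (r = 0.86 and 0.84), weigh as much as any other member in the mean of the 9. The share of the array in these likenesses was not tested.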

How the data were processed

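Liver RNA of 40 mice was measured on 2-colour arrays, the liver in Cy5 and the pool in Cy3 with no dye swap, per the labels. RNA was extracted on RNeasy columns with DNase and labelled through amino-allyl amplification, per the labels' protocols, and the pool held equal portions of RNA of the samples, per the design text. The deposited values are log10 ratios of 23574 probes with 0 missing. The log base and direction are not stated: read as log10 of liver over pool, the Y-linked gene Eif2s3y is 2.00-fold over the pool in males, the value that a pool of as many male as female livers gives. A second Y-linked gene, Kdm5d, was 1.77-fold over the pool in males, with the highest female at -0.51 and the lowest male at 0.23 in log2. The authors' background correction, normalization and software are not given in the sources used here. Values were multiplied to log2.

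Groups came from the labels, which number each mouse as a separate animal. Probes were named through Entrez identifiers in the mouse RefSeq table; of 13665 probes with 1 symbol, 12662 were named. The probe of largest SD stood for a gene. A fit of 8 group means with limma 3.58.1 in R 4.3.3 (lmFit, eBayes; 32 residual and 3.42 prior degrees of freedom) gave 21 comparisons, 2 of them added after the data were seen. A call is a Benjamini-Hochberg adjusted p under 0.05 over all probes. Single values were checked with the two-sided exact permutation test over 252 splits, and correlations with 100000 permutations within groups. The 10 arrays of a 2-group comparison limit the precision. On simulated data of the ovariectomy comparison, run over 23574 probes, 95% of changes of 1 and 76% of changes of 0.5 in log2 were called, with 4.47% of calls false. Those rates are over probes drawn at random, with 100 planted changes of each size. In the data only 0.0339% of all probes passed that comparison, so the cutoff that the adjustment sets was stricter. The rates therefore do not carry over to it. Nor do they apply to Per2, Bhlhe40, Nr1d1 and Nr1d2, whose residual SDs lie at the 90.5th percentile of all probes or above. No batch, slide or date was labelled, so none was tested.

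The members and gene lists were chosen with earlier results of these data known. Named genes are all 9 members, up to 4 genes per list with the smallest p in the comparison, and the 5 highest and 5 lowest correlates of Nr1d1 and of the mean of the members. Alternatives were quantile normalization, array weights, fits of the compared groups alone, the mean of a gene's probes and leaving out each animal, and, added after the data were seen, centring arrays on their median and the array median as a covariate. Sequences and motif shares come from RefSeq windows on GRCm38.p6.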

Additional observations from a re-analysis of the deposited data

Results flagged for a closer look

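In 7 of 80 sets of 5 livers (10 probes in 8 groups), 1 liver stood apart from the other 4 by more than 0.71 of the set's range; chance gives about 1 in 20 such sets. Nr1d1 was 0.50 in ovariectomized DHT animal 50, with the others between -0.35 and -0.15. Nr1d2 was 0.61 in castrated DHT animal 63, with the others between -0.03 and 0.13, and the same animal had a Bhlhe41 of -0.16, with the others between 0.08 and 0.16. Dbp was -0.22 in castrated placebo animal 27, with the others between 0.03 and 0.05, and without it the average DHT difference of Dbp no longer passed. Per1 was 0.16 in ovariectomized estradiol animal 34, with the others between -0.16 and -0.08. Bhlhe40 was -0.68 in castrated placebo animal 24, with the others between 0.22 and 0.48, the animal that also had the lowest Per2 of its group. Bhlhe41 was 0.38 in intact male animal 9, with the others between -0.44 and -0.23.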

How the results depend on the processing

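No paired analysis was possible because each animal number occurs in 1 group only. Among member differences that passed as reported or under any alternative, none changed sign; differences near 0 that never passed were not followed. Of their repeats, 838 kept their side of the threshold, 68 lost a call and 53 gained one. Counts of members called that moved by over 1.5 times were these. With quantile normalization they were 1 instead of 2 for intact females against males, 3 instead of 1 after ovariectomy, 2 instead of 1 for DHT in males, 2 instead of 1 for ovariectomy with estradiol against intact and 1 instead of 2 for castration with estradiol against intact. With array weights they were 4 for the intact sexes, 3 after ovariectomy, 5 instead of 1 after castration, 1 instead of 0 for estradiol in females, 2 instead of 0 for DHT in females, 3 for DHT in males, 7 instead of 4 for gonadectomy over both sexes, 1 instead of 0 for its difference between the sexes and 1 instead of 0 for estradiol over both sexes. With only the compared groups in the fit they were 1 for the intact sexes, 0 after ovariectomy, castration, DHT in males and ovariectomy with estradiol against intact, 2 instead of 4 for castration with DHT against intact and 1 for castration with estradiol against intact; that fit has fewer samples. With the mean of a gene's probes they were 3 after ovariectomy and 2 for ovariectomy with estradiol against intact. With the array median as a covariate they were 3 after ovariectomy, 2 after castration, 2 for DHT in males and 1 instead of 0 for the sexes on estradiol and over 4 states, Nr1d2 in both. Smaller moves were 3 instead of 4 for gonadectomy over both sexes with arrays centred on their median, which left the other 20 counts as they were; 4 instead of 3 for DHT over both sexes with array weights; 3 with quantile normalization and 5 with weights, instead of 4, for castration with DHT against intact; and 3 instead of 2, with weights or the covariate, for castration with estradiol against intact. The cause of these changes was not tested.

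Leaving out 1 animal gave 1 to 3 calls for the intact sexes, 0 to 3 after ovariectomy, 1 to 2 after castration, 3 to 4 for gonadectomy over both sexes, 0 to 1 for its difference between the sexes, 0 to 1 for estradiol in males and over both sexes, 0 to 2 for DHT in males, 2 to 4 for DHT over both sexes, 0 to 1 for ovariectomy with estradiol, 3 to 5 for ovariectomy with DHT, 3 to 5 for castration with DHT and 1 to 2 for castration with estradiol, each against intact. The other comparisons stayed at 0. Of 126 exact permutation tests, 123 kept their side of 0.05 with quantile-normalized values; Per2 between intact females and males had an exact p of 0.0238 there, against 0.468 as deposited. Signal over background was not used here, so dim probes were not filtered.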
